A study of Homo sapiens with 24 samples.

Results

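A set of 10 classic estrogen-induced genes was followed in PRO-seq data from T47D dTAG-TRPS1 cells. The genes were *GREB1*, *TFF1*, *TFF3*, *PDZK1*, *IGFBP4*, *CA12*, *MYB*, *SIAH2*, *AREG* and *KRT13*, chosen by name as genes long known to be induced by estrogen. They and the lists used below were chosen with earlier results of these data known. All 10 were found by symbol among the 60605 genes of the count table. PRO-seq reads RNA at the position of engaged polymerases, and therefore measures ongoing transcription and not mature RNA. T47D is an established luminal breast cancer cell line that expresses the estrogen receptor (ER).

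Clones 28, 35 and 39 of these cells each carry a degron tag at the endogenous *TRPS1* gene. Part of the genomic *TRPS1* copies are knocked out in each clone, and the remaining protein is tagged. Each clone is 1 line, and all 3 were picked in a second round of cloning that started from 1 earlier clone. Cells of each clone were treated for 90 minutes with 0.1% v/v DMSO, the vehicle, or with 100 nM dTAG-13, a compound that bridges the tag to a ubiquitin ligase and so has TRPS1, a GATA-family repressor, degraded. There were 4 replicates in each of the 6 groups, 24 libraries in all, taken at different times of 1 day with both treatments of a replicate collected together. All cells grew in medium with fetal bovine serum and insulin, and no group was starved of hormone or given added estrogen. No cells without the tag were treated in these 24 libraries, so an effect of dTAG-13 itself and the loss of TRPS1 cannot be told apart.

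ER is a nuclear receptor that binds estrogen, docks on DNA at estrogen response elements and recruits cofactors that raise transcription of nearby genes. Many of its binding sites lie in enhancers far from the genes they act on, where FOXA1 and GATA3 also bind. The 10 genes have different products. *GREB1* encodes an ER cofactor and *MYB* a transcription factor, *TFF1*, *TFF3*, *IGFBP4* and *AREG* encode secreted proteins, *PDZK1* a scaffold for membrane transporters, *CA12* a membrane-bound carbonic anhydrase, *SIAH2* an E3 ubiquitin ligase and *KRT13* a keratin of stratified epithelium.

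The libraries held 3226718 to 9575803 counts (median 5042122), and this number limits the precision for the least transcribed genes. The luminal identity of the cells was visible in the defining markers: all 8 luminal markers on the list used were detected in every library, with *ESR1*, the gene for ER, at 1205 to 1912 CPM (counts scaled to library size). Among 5 basal or mesenchymal markers, *KRT5* was at 0 in 16 libraries and *KRT14* in 11, while *TP63* (22 to 192 counts, median 14.06 CPM), *ZEB1* (13 to 38 counts) and *VIM* (1 to 13 counts) were at 0 in none. Among 4 blood and stroma markers, *COL1A2* was at 0 in 9 libraries, while *COL1A1* (35 to 108 counts, median 12.51 CPM), *PTPRC* (7 to 25 counts) and *PECAM1* (3 to 14 counts) were at 0 in none. The summed level of the luminal markers was 3606 to 5920 CPM in DMSO and 3747 to 5340 CPM in dTAG-13. That of the basal or mesenchymal markers was 11.72 to 24.79 and 13.44 to 27.31 CPM, and that of the blood and stroma markers 13.62 to 20.08 and 10.86 to 21.11 CPM. Levels of *TRPS1* itself do not check the treatment, since dTAG-13 acts on the protein.

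RefSeq promoter sequences were available for 6 of the 10 genes in the table used here (7 entries, GRCh38.p14, 250 bases before to 50 after the start). They are shown for 4 members described below: *PDZK1*, called for the treatment with paired libraries, *AREG*, whose response differed between replicate numbers, and *CA12* and *SIAH2*, which differed in opposite directions between clones. Sequences run 5′ to 3′ on the gene's strand, and capitals mark matches on either strand to the core hexamer of the estrogen response element (AGGTCA), to the full element (AGGTCANNNTGACCT, which contains the hexamer on both strands), to a GATA motif or to the cAMP response element (TGACGTCA). The GATA motif was counted as AGATAA or the same letters with a first base of T (TGATAA), and each of the pair also with a last base of G. The cAMP response element was added after the *AREG* sequence had been read.
*PDZK1*, chr1:145707351-145707650, minus strand: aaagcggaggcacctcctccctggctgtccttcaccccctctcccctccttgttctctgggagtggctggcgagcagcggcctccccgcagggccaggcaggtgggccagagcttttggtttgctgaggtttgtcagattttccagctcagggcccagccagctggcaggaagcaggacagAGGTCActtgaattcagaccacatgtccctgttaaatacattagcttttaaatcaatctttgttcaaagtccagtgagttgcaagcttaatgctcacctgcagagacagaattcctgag
*AREG*, chr4:74444886-74445185, plus strand: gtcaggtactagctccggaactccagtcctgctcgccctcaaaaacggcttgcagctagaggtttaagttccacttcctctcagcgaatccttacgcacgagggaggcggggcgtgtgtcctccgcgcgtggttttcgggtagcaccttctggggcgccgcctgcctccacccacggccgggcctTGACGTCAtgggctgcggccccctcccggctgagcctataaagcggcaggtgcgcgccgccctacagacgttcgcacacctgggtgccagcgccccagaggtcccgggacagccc
*CA12*, chr15:63381797-63382096, minus strand: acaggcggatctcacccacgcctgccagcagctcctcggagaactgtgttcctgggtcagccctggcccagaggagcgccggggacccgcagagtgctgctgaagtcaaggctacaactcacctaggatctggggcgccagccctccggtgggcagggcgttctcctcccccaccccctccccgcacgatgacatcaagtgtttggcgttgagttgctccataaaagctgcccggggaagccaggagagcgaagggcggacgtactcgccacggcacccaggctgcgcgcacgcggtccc
*SIAH2*, chr3:150763120-150763419, minus strand: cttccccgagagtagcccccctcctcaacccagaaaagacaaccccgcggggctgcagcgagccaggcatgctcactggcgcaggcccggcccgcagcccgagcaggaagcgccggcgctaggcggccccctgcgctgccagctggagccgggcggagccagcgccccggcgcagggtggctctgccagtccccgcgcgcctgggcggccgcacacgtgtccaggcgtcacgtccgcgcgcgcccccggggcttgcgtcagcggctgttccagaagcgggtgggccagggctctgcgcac

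Positions are counted from the start, with -1 the base before it. The *PDZK1* promoter held 1 core hexamer at -69 to -64, and the same bases lie at -101 to -96 in its other entry. The *AREG* promoter held 1 cAMP response element, the palindrome bound by CREB, at -65 to -58. Neither the shown *CA12* and *SIAH2* promoters nor those of *MYB* and *IGFBP4* had a match to any of the 4 motifs. Of 35116 promoters of this length in the table, 13.8% held the core hexamer, 0.00285% the full element, 25% a GATA motif and 1.85% the cAMP response element. A match is a string of letters and was not tested as a binding site, and enhancers were not searched.

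The 10 genes were transcribed over a wide range. Per kb of gene length, which allows genes to be compared, the mean level over the 12 DMSO libraries was highest for *SIAH2* (6.47 ± 1.48 CPM per kb, SD, n = 12) and *GREB1* (5.69 ± 0.50). *PDZK1* (3.97 ± 0.87), *CA12* (3.38 ± 0.78), *IGFBP4* (3.05 ± 0.40), *AREG* (2.21 ± 0.96) and *TFF3* (2.03 ± 0.74) followed. *MYB* (0.75 ± 0.21), *TFF1* (0.71 ± 0.34) and *KRT13* (0.11 ± 0.088) were lowest. The order was firm at some steps only. *GREB1* was above *PDZK1*, *PDZK1* above *CA12*, *TFF3* above *MYB* and *TFF1* above *KRT13* in 12 of 12 DMSO libraries. The order of some neighbours turned with the clone. *SIAH2* exceeded *GREB1* in all 4 DMSO libraries of Clone 28 and all 4 of Clone 35 but in 0 of 4 of Clone 39. *CA12* exceeded *IGFBP4* in 0 of 4, 3 of 4 and 4 of 4 libraries of Clones 28, 35 and 39, and *MYB* exceeded *TFF1* in 4 of 4, 1 of 4 and 0 of 4. *IGFBP4* exceeded *AREG* in all 4 libraries of Clones 28 and 39 and in 2 of 4 of Clone 35, and *AREG* and *TFF3* did not differ beyond their spread, with *AREG* higher in 2, 3 and 1 of 4.

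**Figure D1:**
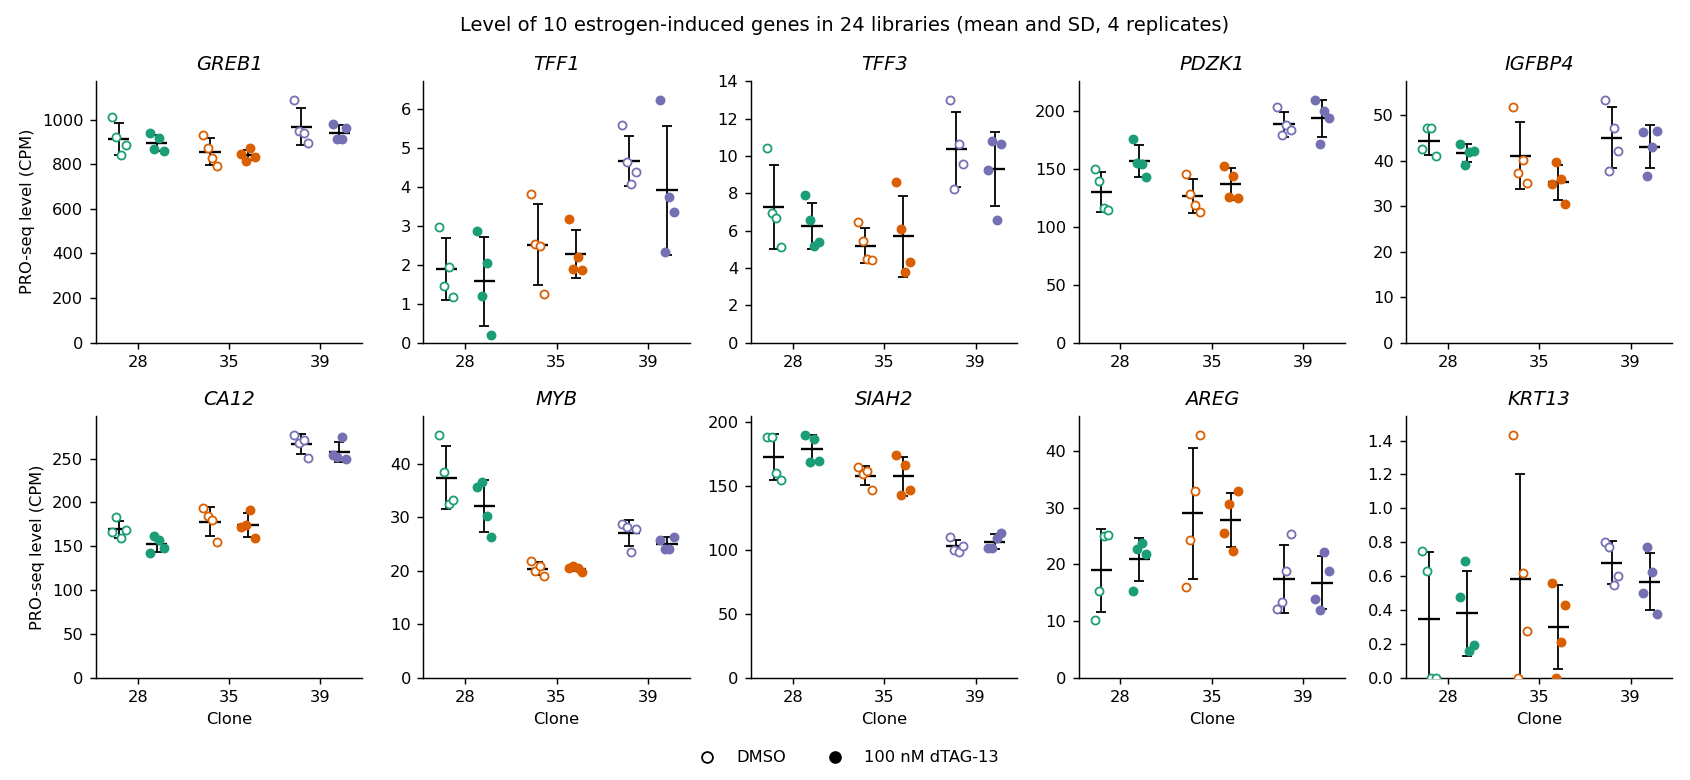
PRO-seq level of each gene in CPM (vertical axis, from 0) in every library, by clone and treatment. Open points are DMSO and filled points dTAG-13, spread from left to right by replicate number, and bars are the mean and SD of 4 replicates. *CA12* was 249.5 to 276.4 CPM in the libraries of Clone 39 and at most 193.8 CPM elsewhere, *SIAH2* was 98.36 to 113.0 CPM in Clone 39 and at least 142.9 CPM elsewhere, and DMSO and dTAG-13 points overlapped in each clone for every gene.

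Raw depth followed the length of the genes as well as their level. *GREB1*, the longest of them (chr2:11482341-11642788, plus strand), collected 2928 to 8318 counts per library, which gives a counting error near 1.49% of its value. *TFF1* (chr21:42362282-42366535, minus strand) collected 1 to 28 counts, *TFF3* (chr21:42311667-42315409, minus strand) 21 to 65, and *AREG* (chr4:74445136-74455005, plus strand) 41 to 309. *KRT13* (chr17:41500981-41505705, minus strand) had 0 to 6 counts, with 0 in 4 libraries, and did not pass the filter on low counts. A count of 0 allows up to 3 counts, which is 0.313 CPM in the deepest library and 0.930 CPM in the shallowest, so differences in *KRT13* were not detectable at this depth. The tests below therefore cover 9 of the 10 genes.

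Replicate spread differed between genes. The median coefficient of variation within a group was 5.60% for *GREB1*, 5.69% for *CA12*, 5.73% for *SIAH2*, 9.39% for *PDZK1* and 10.8% for *IGFBP4*, against median counting errors of 1.49%, 3.09%, 3.41%, 3.51% and 6.83%. For *MYB* it was 7.38%, below its counting error of 8.86%. It was 20.5% for *TFF3* and 41.8% for *TFF1*, against counting errors of 17.1% and 26.3%. *AREG* had 31.3% against a counting error of 9.95%.

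Some reads could belong to overlapping or copied genes, since the strand setting of the counting is not given in the sources used here. *SIAH2* (chr3:150741125-150763477, minus strand) overlaps the antisense gene *SIAH2-AS1* over 1541 bases, and the antisense gene had a mean count of 629 per library. *GREB1* contains 5 small RNA genes, of which *RN7SL674P* had the most counts, a mean of 38.0. *MYB* (chr6:135181308-135219173, plus strand) overlaps *MYB-AS1*, which had 3 counts in all 24 libraries. *PDZK1* (chr1:145670852-145708148, minus strand) has a related pseudogene, *PDZK1P1*, elsewhere on the same chromosome. Reads shared between them could make its counts uncertain, which was not tested. *CA12* (chr15:63321378-63381846, minus strand) and *IGFBP4* (chr17:40443450-40457725, plus strand) overlap no other annotated gene.

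The first comparison was between the clones in DMSO, which shows how these genes stood before TRPS1 was degraded. Of the 9 genes tested, 7 differed between the clones at an adjusted p under 0.1 (edgeR quasi-likelihood F test, Benjamini-Hochberg over all 22326 genes), beside 28.5% of all genes. Clone 39 had more transcription of *CA12*, *PDZK1*, *TFF1* and *TFF3* and less of *SIAH2* than both other clones, while *MYB* was highest in Clone 28. Clone is the cell line itself here, so any difference between the lines is included.

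Markers of cell identity also differed between the clones in DMSO. Between Clones 39 and 28, 4 of 8 luminal markers were called, beside 26.7% of all genes. *KRT8* (log2 fold change -0.45), *KRT18* (-0.57) and *GATA3* (-0.26) were lower and *FOXA1* (0.23) was higher in Clone 39. Of 2 basal or mesenchymal markers tested *TP63* (-0.78) was lower, and of 3 blood and stroma markers tested *PTPRC* (0.69), at few counts, was higher. Between Clones 39 and 35, where 22.6% of all genes were called, *KRT8* (-0.32), *KRT18* (-0.50), *GATA3* (-0.14) and *TP63* (-1.11) were lower in Clone 39. *PGR* (0.61), *ZEB1* (0.53) and *PTPRC* (0.68) were higher in Clone 39. Between Clones 35 and 28 *PGR* (-0.70) was the 1 marker called, lower in Clone 35, beside 5.25% of all genes. The summed level in DMSO was 4603 to 5920, 3606 to 4592 and 4376 to 5364 CPM in Clones 28, 35 and 39 for the luminal markers. It was 17.48 to 21.88, 19.36 to 24.79 and 11.72 to 17.5 CPM for the basal or mesenchymal markers, and 13.62 to 16.78, 14.54 to 19.34 and 17.16 to 20.08 CPM for the blood and stroma markers. Their part in the differences of the estrogen-induced genes was not tested.

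*CA12* in DMSO was 165.8, 182.9, 159.9 and 168.1 CPM in replicates 1 to 4 of Clone 28 and 193.8, 184.5, 179.5 and 154.8 CPM in Clone 35. In Clone 39 it was 276.4, 268.2, 270.8 and 250.3 CPM. Every Clone 39 library was above every library of the other clones, and those overlapped. The log2 fold change of Clone 39 against Clone 28 was 0.65 (SE 0.066, a fold of 1.57, edgeR adjusted p = 1.98e-09) and against Clone 35 it was 0.58 (SE 0.066, adjusted p = 2.11e-08).

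*SIAH2*, which encodes a ubiquitin ligase that targets several nuclear cofactors for degradation, had the opposite order. It was 188.4, 187.9, 160.3 and 154.6 CPM in the DMSO replicates of Clone 28 and 164.5, 159.5, 161.2 and 147.0 CPM in Clone 35. In Clone 39 it was 109.8, 99.86, 98.36 and 103.3 CPM. All Clone 39 libraries lay below all others, with a log2 fold change of -0.75 against Clone 28 (SE 0.073, a fold of 0.596, edgeR adjusted p = 9.15e-10) and of -0.62 against Clone 35 (SE 0.073, adjusted p = 4.36e-08). The overlapping antisense gene *SIAH2-AS1* was lower in Clone 39 too, with log2 fold changes of -1.07 (adjusted p = 2.27e-14) and -0.65 (adjusted p = 2.46e-09), and how far its reads enter the *SIAH2* counts was not tested.

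*PDZK1* was 149.7, 139.7, 115.8 and 114.7 CPM in the DMSO replicates of Clone 28 and 145.9, 128.0, 118.8 and 113.1 CPM in Clone 35. It was 203.1, 178.9, 187.5 and 183.6 CPM in Clone 39, again above all libraries of the other clones. Its log2 fold change was 0.54 against Clone 28 (SE 0.090, a fold of 1.45, edgeR adjusted p = 3.08e-05) and 0.58 against Clone 35 (SE 0.089, adjusted p = 9.93e-06). Its pseudogene *PDZK1P1* was higher in Clone 39, with log2 fold changes of 0.60 (adjusted p = 0.00221) and 0.65 (adjusted p = 6.84e-04) in the same comparisons, and the part of shared reads was not tested. The level in Clones 28 and 35 differed by -0.041 (Clone 35 against Clone 28, 95% interval -0.23 to 0.14).

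*MYB*, a proto-oncogene that drives proliferation in several tissues, separated all 3 clones. In DMSO it was 45.25, 38.34, 32.49 and 33.19 CPM in Clone 28, 21.7, 19.96, 20.89 and 18.94 CPM in Clone 35 and 28.73, 28.05, 23.43 and 27.77 CPM in Clone 39. No library of one clone overlapped with those of another. Against Clone 28 the log2 fold change was -0.87 in Clone 35 (SE 0.11, a fold of 0.546, edgeR adjusted p = 1.77e-06) and -0.46 in Clone 39 (SE 0.11, adjusted p = 0.00181).

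*TFF1* and *TFF3* are secreted trefoil peptides of mucosal epithelia whose genes lie near each other on chromosome 21. *TFF1* was 4.68 ± 0.65 CPM (SD, n = 4) in Clone 39 against 1.89 ± 0.79 in Clone 28 and 2.52 ± 1.05 in Clone 35, and the Clone 39 libraries, from 4.087 CPM up, were above all others in DMSO. Its log2 fold change against Clone 28 was 1.34 (95% interval 0.56 to 2.12, edgeR adjusted p = 0.0102), the largest of the 9 genes and also among the least precise. *TFF3* was 10.36 ± 2.0 CPM in Clone 39, 7.28 ± 2.25 in Clone 28 and 5.19 ± 0.95 in Clone 35, and its largest difference was between Clones 39 and 35 (log2 fold change 1.03, SE 0.23, adjusted p = 0.00112).

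*GREB1* differed least among those called: 914.8 ± 71.5 CPM (SD, n = 4) in Clone 28, 856.4 ± 59.9 in Clone 35 and 967.7 ± 82.3 in Clone 39, with an edgeR adjusted p of 0.0686 for any difference. That call was lost without Clone 35 DMSO replicate 3 or 4 or Clone 39 DMSO replicate 1, where the adjusted p rose to as much as 0.225, and was not made by DESeq2 (0.223) or without the filter on low counts (0.176). *AREG*, a ligand of the EGF receptor, was 28.96 ± 11.5 CPM in Clone 35 against 18.9 ± 7.40 in Clone 28 and 17.43 ± 6.03 in Clone 39, and did not pass (adjusted p = 0.143). It passed without Clone 35 DMSO replicate 1 (0.0451) or Clone 39 DMSO replicate 4 (0.0741). With the replicate number as a term shared by the clones *AREG* did pass (adjusted p = 0.0184), which made 8 of 9 genes beside 39.7% of all genes. The labels do not say that a number marks the same time in every clone, so this fit matches libraries across clones by number only. *IGFBP4*, which binds insulin-like growth factors outside the cell, was 41.12 to 45.1 CPM on average in the clones and did not pass either way (adjusted p = 0.534).

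By pairs of clones, 6 of the 9 genes were called between Clones 39 and 28, beside 26.7% of all genes, and 7 between Clones 39 and 35, beside 22.6%. Between Clones 35 and 28 only *MYB* was called, beside 5.25%. With the number as that shared term the counts were 7 (35.2% of all genes), 8 (30.5%) and 3 (11.9%), the last with *AREG* (log2 fold change 0.62) and *GREB1* (-0.095) beside *MYB*, which rest on the same matching. Without regard to a test, the DMSO libraries did not overlap for 5 of 9 genes between Clones 39 and 28 (20.8% of all genes), 6 of 9 between Clones 39 and 35 (19.9%) and 1 of 9 between Clones 35 and 28 (8.55%). With both treatments counted, the 8 libraries of Clone 39 stood apart from the other 16 for *CA12* and *SIAH2* (7.78% of all genes), and those of Clone 35 for *MYB* (0.578%).

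**Figure D2:**
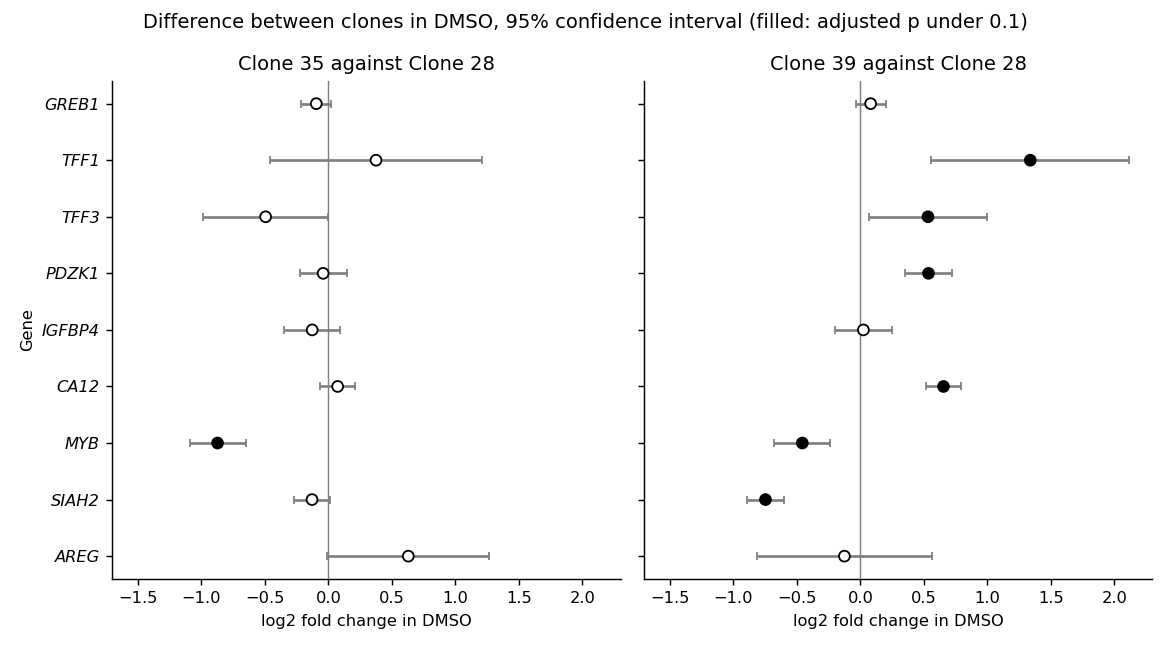
Difference of each gene between clones in DMSO on the log2 scale (horizontal axis), Clone 35 against Clone 28 on the left and Clone 39 against Clone 28 on the right. Points are edgeR estimates, bars are 95% intervals and filled points have an adjusted p under 0.1. *MYB* was the only gene filled on the left, and *CA12* at 0.65 and *SIAH2* at -0.75 lay on opposite sides on the right; both panels share the Clone 28 libraries.

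The main comparison was dTAG-13 against DMSO, which asks how transcription of these genes changed within 90 minutes of treatment. With the 3 clones together, 0 of the 9 genes were called by edgeR at an adjusted p under 0.1, beside 0.551% of all genes (123 genes). At an unadjusted p under 0.05 there were 2, *PDZK1* and *IGFBP4*, beside 6.32% of all genes, and DESeq2 called 0 of the 9 and 160 of all genes. The log2 fold change was negative for 7 of the 9, with a median of -0.076 beside -0.0018 over all genes tested. The estimates for *GREB1*, *SIAH2*, *CA12*, *PDZK1*, *IGFBP4* and *MYB* were the tightest, and their 95% intervals lay between -0.25, the lower bound of *IGFBP4*, and 0.25, the upper bound of *PDZK1*.

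*PDZK1* had the largest positive estimate. In Clone 28 it was 149.7, 139.7, 115.8 and 114.7 CPM in DMSO and 175.8, 154.7, 154.5 and 142.8 CPM in dTAG-13, higher in 4 of 4 pairs of the same replicate number. In Clone 35 dTAG-13 gave 152.3, 125.4, 144.1 and 125.0 CPM, higher in 3 of 4 pairs, and in Clone 39 it gave 209.0, 171.5, 199.5 and 193.6 CPM, higher in 3 of 4. The treatment groups overlapped in each clone, and dTAG-13 was the higher library in 10 of 12 pairs. Together the log2 fold change was 0.14 (SE 0.053, 95% interval 0.033 to 0.25, a fold of 1.10, edgeR adjusted p = 0.521).

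With a term for each of the 12 pairs, a replicate block that removes what 2 libraries collected together share, *PDZK1* was the 1 gene of 9 called, at the same fold (log2 fold change 0.14, SE 0.033, edgeR adjusted p = 0.00840), beside 2.33% of all genes called in either direction (521 genes) and 1.4% called higher. The call with the block was kept without Clone 35 or Clone 39, but without Clone 28 the estimate was 0.077 and did not pass (adjusted p = 0.633). In Clone 28 alone the log2 fold change was 0.27 (SE 0.090, adjusted p = 0.577), and with the block 0.28 (SE 0.052, adjusted p = 0.00160), beside 1.18% of all genes. It was 0.12 (SE 0.089) in Clone 35 and 0.038 (SE 0.089) in Clone 39, where the 95% interval reached from -0.14 to 0.22.

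The difference of the *PDZK1* effect between clones was tested itself and did not pass, with an unadjusted p of 0.186 without the block and 0.00715 with it, and edgeR adjusted p-values of 1.0 for both. Without the block, the copy *PDZK1P1* had a log2 fold change of 0.13 (SE 0.081, edgeR adjusted p = 0.930) with the clones together. By clone it was 0.28 (SE 0.14) in Clone 28, near the 0.27 of *PDZK1* there, 0.037 (SE 0.14) in Clone 35 and 0.071 (SE 0.14) in Clone 39. How far shared reads enter the change was not tested. Among neighbours, *GPR89A*, which ends 202 bases from *PDZK1* and encodes a Golgi channel protein, had 0.0083 (SE 0.043, adjusted p = 1.0) with the clones together. *CD160*, 11323 bases away on the other side, had -0.13 (SE 0.19, adjusted p = 1.0). In Clone 28 these neighbours had 0.012 (SE 0.077) and -0.20 (SE 0.32), also without the block.

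Among the more tightly estimated genes, *IGFBP4*, *MYB* and *CA12* had small negative estimates. *IGFBP4* had a log2 fold change of -0.12 (SE 0.061, edgeR adjusted p = 0.786) and was lower in 8 of 12 pairs. *MYB* had -0.11 (SE 0.063, adjusted p = 0.893) and *CA12* -0.076 (SE 0.038, adjusted p = 0.791), each lower in 9 of 12 pairs. For *CA12* and *MYB* the pairs of Clone 28 were all lower: *CA12* went from a mean of 169.2 ± 9.78 CPM in DMSO to 152.4 ± 8.54 in dTAG-13 (SD, n = 4), and *MYB* from 37.32 ± 5.89 to 32.12 ± 4.84. Neither was called in that clone (adjusted p = 0.971 and 1.0, and 0.189 and 0.417 with the block).

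*GREB1*, often used as a reporter of ER activity, had a log2 fold change of -0.032 (SE 0.032, 95% interval -0.097 to 0.033, edgeR adjusted p = 0.999), the most precise of the set. *SIAH2* had 0.030 (SE 0.040, adjusted p = 1.0) and its antisense gene *SIAH2-AS1* 0.063 (SE 0.037, adjusted p = 0.905). The trefoil genes and *AREG* were too variable to bound as closely. *TFF1* had -0.20 (95% interval -0.63 to 0.23), *TFF3* -0.089 (95% interval -0.36 to 0.18) and *AREG* -0.012 (95% interval -0.37 to 0.35), an estimate so close to 0 that its sign turned in DESeq2 (0.0055).

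By clone, edgeR called 0 of the 9 genes in Clone 28, beside 0.0537% of all genes, with 3 at an unadjusted p under 0.05 (*PDZK1*, *CA12* and *MYB*), beside 4.83%. It called 0 of 9 in Clones 35 and 39, where 0% of all genes were called, with 0 members at an unadjusted p under 0.05 in either (2.89% and 3.38% of all genes). The treatment groups did not separate for any of the 9 genes in Clone 28 (2.97% of all genes), Clone 35 (2.36%) or Clone 39 (2.14%). The difference of the response between clones was called by edgeR for 0 of 9 genes and 0% of all genes without the block, where 0 of the 9 and 407 of all genes had an unadjusted p under 0.05. With the block it was called for 0 of the 9 and 0.00448% of all genes, and *PDZK1* was the 1 member with an unadjusted p under 0.05, beside 4.56% of all genes.

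**Figure D3:**
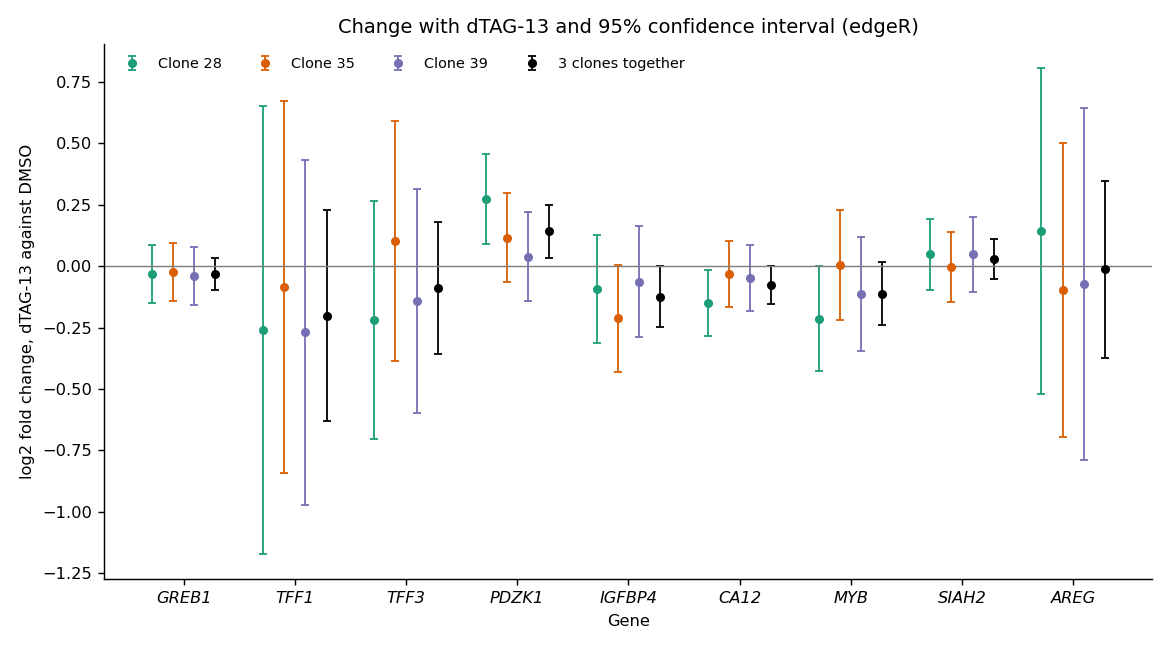
Log2 fold change (vertical axis) of dTAG-13 against DMSO for the 9 tested genes, in each clone (coloured) and with the 3 clones together (black), from edgeR without a block. Bars are 95% intervals. *PDZK1* with the clones together lay at 0.14 with an interval above 0, *GREB1* at -0.032 had the narrowest interval, and the intervals of *TFF1* and *AREG* were widest.

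A list of 35 other estrogen-induced genes, counted in the same fit, gives the setting of these values. It too was chosen with earlier results of these data known. Of 34 tested, 1 was higher and 2 were lower with the clones together, with a median log2 fold change of -0.076. *HSPB8*, a small heat shock protein, rose (0.20, SE 0.043, edgeR adjusted p = 0.0257), beside 0.358% of all genes called higher. *CXCL12*, a chemokine (-0.21, SE 0.044, adjusted p = 0.0199), and *KRT19*, a luminal keratin (-0.13, SE 0.030, adjusted p = 0.0346), fell, beside 0.193% called lower. All 3 calls were lost without Clone 28, with log2 fold changes of 0.16, -0.17 and -0.10 (adjusted p = 0.809, 0.915 and 1.0). They were also lost without Clone 39, where the log2 fold changes were 0.22, -0.22 and -0.15 (0.127, 0.114 and 0.114). Without Clone 35, *HSPB8* (0.21) and *KRT19* (-0.15) were not called (0.184 and 0.308).

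With the replicate block 4 of these 34 rose and 9 fell, beside 1.4% and 0.932% of all genes. *AGR2*, a secretory pathway disulfide isomerase (0.19, SE 0.031, edgeR adjusted p = 5.35e-05), *RERG* (0.17), *STC2* (0.11) and *HSPB8* (0.20) rose. *CXCL12* (-0.21), *OLFM1* (-0.20), *CTSD* (-0.16), *KRT19* (-0.13), *CCND1*, which encodes cyclin D1 (-0.12), *RARA*, a retinoic acid receptor (-0.11), *MYBL1* (-0.10), *SLC7A5* (-0.099) and *RUNX1* (-0.081) fell. Without Clone 28, 4 of these 13 calls were kept (*AGR2*, *STC2*, *HSPB8* and *CXCL12*), and *OLFM1* was at -0.078 (adjusted p = 0.866). Without Clone 35 the calls kept were 9, without *CCND1*, *RARA*, *SLC7A5* and *RUNX1*. Without Clone 39 they were 8, without *RERG*, *CTSD*, *MYBL1*, *SLC7A5* and *RUNX1*. Among the listed genes that passed in neither fit were *PGR* (-0.032, SE 0.080), *MYC* (0.050, SE 0.079) and *XBP1* (-0.041, SE 0.055).

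The genes for ER itself and for the pioneer factors FOXA1 and GATA3 were counted in the same fit. *ESR1* (0.056, SE 0.060), *FOXA1* (-0.034, SE 0.048) and *GATA3* (-0.047, SE 0.032) did not pass.

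More of these genes differed between replicate numbers than between treatments. Replicates were collected at different times of 1 day, and the comparison of numbers, like the fit with a shared term above, takes a number as the same in every clone. Across the 4 numbers, with clone and treatment in the model, all 9 genes were called by edgeR, beside 37.4% of all genes. Replicate 1 was the highest of the 4 DMSO libraries in all 3 clones for *GREB1*, *TFF1*, *TFF3*, *PDZK1*, *MYB* and *SIAH2*. For *AREG* it was the lowest in all 3 and replicate 4 the highest in all 3. How many of all genes keep such an order across the clones was not counted, so it cannot be called particular to these genes. In dTAG-13 replicate 1 was highest in all 3 clones for *TFF1* and *PDZK1*, in 2 of 3 for *GREB1*, *TFF3* and *SIAH2* and in 0 of 3 for *MYB*, and it was lowest in 1 of 3 for *AREG*.

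*GREB1* in DMSO had 1010, 931.0 and 1086 CPM in replicate 1 of Clones 28, 35 and 39, and 923.8, 873.6 and 948.5 CPM in replicate 2. It had 841.7, 829.0 and 939.5 CPM in replicate 3 and 884.2, 792.1 and 896.4 CPM in replicate 4. Within each clone replicate 1 was highest, and the edgeR adjusted p for the number was 1.03e-04. In dTAG-13 the mean over the clones was 921.9 ± 68.4, 865.0 ± 47.7, 900.2 ± 25.8 and 884.2 ± 67.0 CPM (SD, n = 3) in replicates 1 to 4, a narrower range than the DMSO means of 1009 ± 77.7, 915.3 ± 38.1, 870.1 ± 60.5 and 857.6 ± 57.0 CPM.

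*AREG* in DMSO had 10.19, 15.97 and 12.17 CPM in replicate 1 of Clones 28, 35 and 39, and 15.29, 24.19 and 13.38 CPM in replicate 2. It had 24.96, 32.96 and 18.8 CPM in replicate 3 and 25.14, 42.72 and 25.37 CPM in replicate 4. In each clone replicate 4 was at least 2 times replicate 1, and the edgeR adjusted p for the number was 0.00504. In dTAG-13 the levels lay closer together, with means over the clones of 18.23 ± 6.28, 21.72 ± 9.40, 22.71 ± 0.84 and 24.51 ± 7.38 CPM (SD, n = 3) in replicates 1 to 4.

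Of the other genes, *PDZK1* (edgeR adjusted p = 3.94e-04), *TFF1* (0.00188) and *TFF3* (0.00271) kept their calls without any 1 library, as did *GREB1* and *AREG*. *TFF1* was 4.13 ± 1.33 CPM in replicate 1 and 2.27 ± 1.84 in replicate 4 of the DMSO libraries (SD, n = 3), and *TFF3* 9.95 ± 3.29 and 6.37 ± 2.81. *CA12* (adjusted p = 0.0325) lost its call without replicate 4 of Clone 35 in DMSO or in dTAG-13, with an adjusted p of up to 0.246, and without the filter on low counts (0.315).

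*SIAH2*, *IGFBP4* and *MYB* were close to the threshold, and none of them passed when libraries were scaled by their totals (adjusted p = 0.157, 0.106 and 0.249). *SIAH2* (edgeR adjusted p = 0.0604) lost its call in 8 of 24 fits that left out 1 library, namely DMSO replicates 1 and 4 and dTAG-13 replicate 1 of Clone 28, replicates 1 and 4 of both treatments of Clone 35, and DMSO replicate 1 of Clone 39, with an adjusted p of up to 0.162. *IGFBP4* (0.0697) lost it in 10, those without DMSO replicate 4 or dTAG-13 replicate 2 of Clone 28, DMSO replicates 1 or 4 or dTAG-13 replicate 4 of Clone 35, or DMSO replicates 1, 2 or 4 or dTAG-13 replicates 1 or 2 of Clone 39, with an adjusted p of up to 0.278. *MYB* (0.0833) lost it in 11, those without any library of Clone 28, DMSO replicate 4 of Clone 35, or DMSO replicates 1 or 3 of Clone 39, with an adjusted p of up to 0.274.

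The dTAG-13 effect was then compared between the replicate numbers. By the interaction of treatment and number, 2 of the 9 genes were called by edgeR, beside 1.63% of all genes, and with the block the same 2, beside 2.09%. *GREB1* (adjusted p = 0.0166, and 0.00503 with the block) was lower with dTAG-13 in 3 of 3 pairs of replicate 1 and 3 of 3 of replicate 2, with mean differences of -0.13 ± 0.021 and -0.082 ± 0.022 in log2 CPM (SD, n = 3). It was higher in 2 of 3 pairs of replicates 3 and 4, with mean differences of 0.051 ± 0.082 and 0.044 ± 0.074. This call was kept without any 1 library, with adjusted p-values of 0.00437 to 0.0612, but not when libraries were scaled by their totals (0.107) or without the filter on low counts (0.276).

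*AREG* moved the other way. Its differences in log2 CPM were 0.47 ± 0.25 in replicate 1, 0.24 ± 0.38 in replicate 2, -0.13 ± 0.40 in replicate 3 and -0.33 ± 0.12 in replicate 4 (SD, n = 3), positive in 3 of 3 pairs of replicate 1 and negative in 3 of 3 pairs of replicate 4. The edgeR adjusted p was 0.0949, and 0.00532 with the block. Without the block the call was kept in the fits without dTAG-13 replicate 3 or DMSO replicate 4 of Clone 28, dTAG-13 replicate 3 of Clone 35, or DMSO replicate 1 or dTAG-13 replicates 2 or 3 of Clone 39, and was lost in the other 18 fits, with adjusted p-values from 0.00194 to 0.241 over all 24. The overall log2 fold changes of *GREB1* (-0.032) and *AREG* (-0.012) average over pairs of opposite sign.

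**Figure D4:**
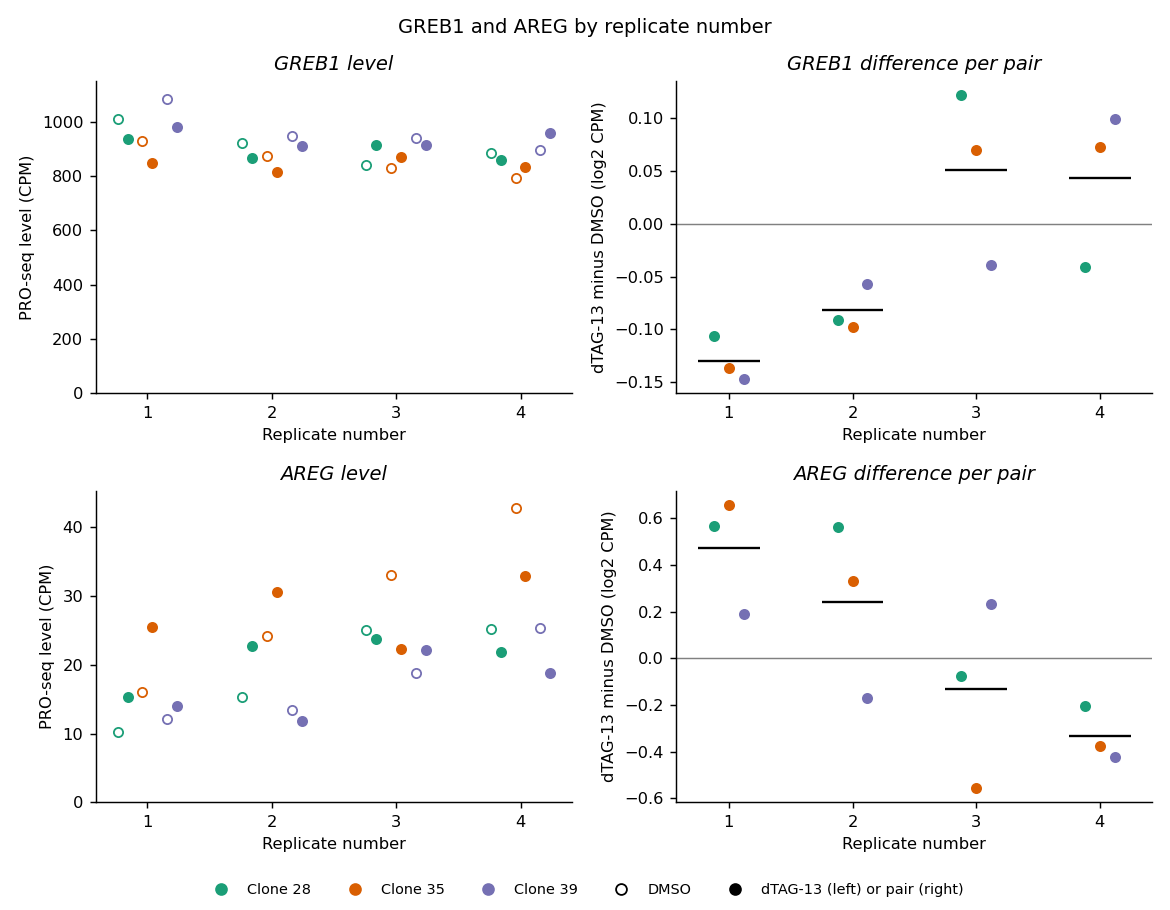
*GREB1* (top) and *AREG* (bottom) by replicate number (horizontal axis). Left panels show the level in CPM, open for DMSO and filled for dTAG-13, and right panels show dTAG-13 minus DMSO in log2 CPM for each pair, with the mean of the 3 clones as a bar. The mean difference of *GREB1* was -0.13 in replicate 1 and 0.044 in replicate 4, and that of *AREG* 0.47 and -0.33.

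Most of the 9 genes varied in the same direction from library to library, and *AREG* in the opposite one. After the mean of each of the 6 groups was removed from log2 CPM, Pearson's r over the 24 libraries was 0.801 for *GREB1* and *PDZK1*, 0.805 for *PDZK1* and *SIAH2* and 0.727 for *TFF1* and *PDZK1*. Among the 28 pairs without *AREG* it was positive in 27, with a median of 0.497, and ranged from -0.052 for *TFF3* and *CA12* to 0.805. *AREG* was negatively correlated with each of the other 8, most with *GREB1* (r = -0.81) and least with *IGFBP4* (r = -0.292). These values describe the libraries, which share clone, replicate number and depth, and carry no test. The differences between replicate numbers described above were not removed, and pairs of other genes were not counted. Without removing the group means, *CA12* and *SIAH2* had r = -0.901, against 0.376 with the means removed, so that their opposite order lay between the clones.

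**Figure D5:**
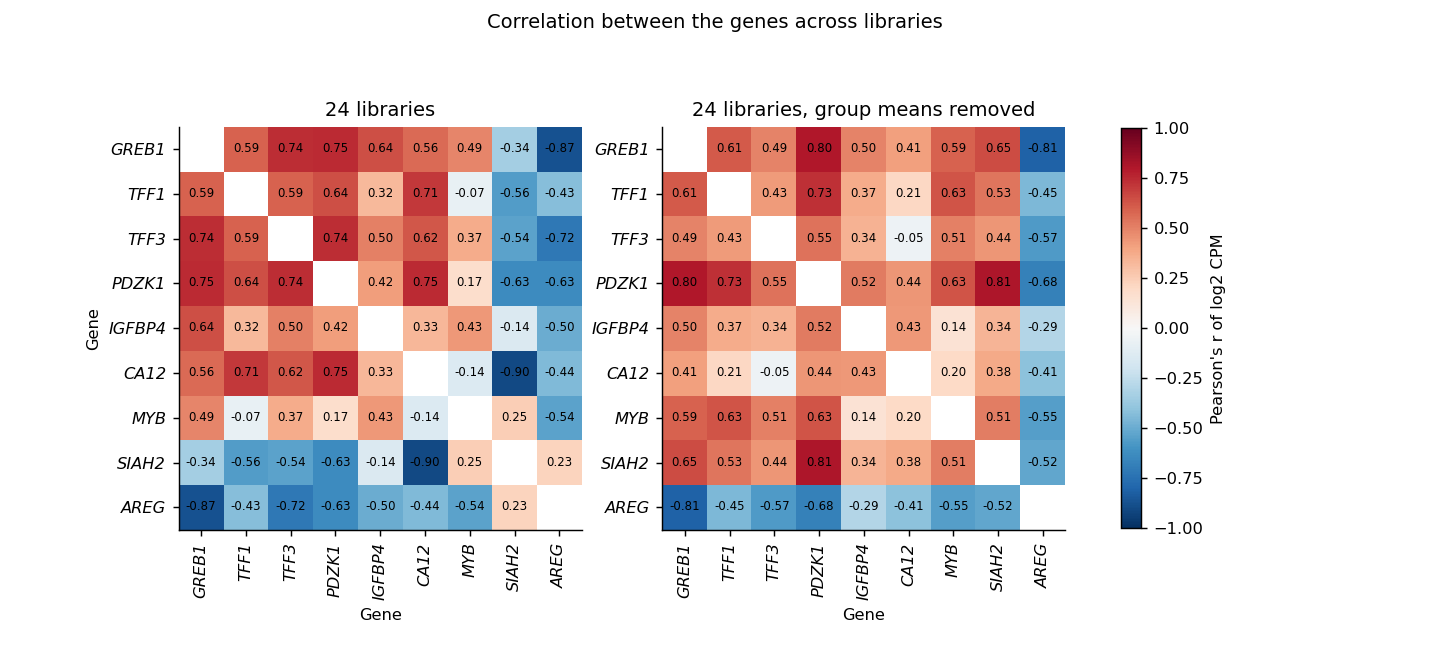
Pearson's r of log2 CPM between the 9 genes over 24 libraries, as measured (left) and with the mean of each clone and treatment group removed (right). Both axes list the genes and the colour scale runs from -1 to 1. *AREG* is negative against all others on the right, and *CA12* with *SIAH2* is -0.901 on the left and 0.376 on the right.

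For each gene the most similar pattern over the 24 libraries was sought among the other tested genes with at least 5 CPM on average. *CA12* was closest to *PREX1*, an exchange factor for Rac (r = 0.983), *SIAH2* to *PTGES*, prostaglandin E synthase (r = 0.978), and *PDZK1* to *RBBP8*, a DNA repair factor (r = 0.956). *MYB* was closest to *LINC02456* (r = 0.902), *GREB1* to *RUNX1*, a transcription factor (r = 0.872), *TFF3* to *DCTD* (r = 0.865) and *AREG* to *PPP2R5B*, a phosphatase subunit (r = 0.864). *TFF1* with *PMEPA1* (r = 0.823) and *IGFBP4* with *SNHG11* (r = 0.729) had the weakest best match. The best of about 17164 candidates is high by selection, and these r values carry no test.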

How the data were processed

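PRO-seq libraries of T47D dTAG-TRPS1 Clones 28, 35 and 39, treated with DMSO or dTAG-13, were analysed from the deposited table of counts, which holds whole reads per gene without normalization. The authors removed adapters with cutadapt, collapsed duplicates by unique molecular identifiers with fqdedup, removed ribosomal DNA reads, aligned to hg38 with Bowtie2 (version 2.4.4, submitters' processing notes) and assigned reads to genes by bedtools. The annotation and strand setting of the counting are not given in the sources used here. Positions were taken from GENCODE 44 and promoters from RefSeq.

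Genes were kept by filterByExpr (minimum count of 10, 22326 of 60605 genes) and tested in R 4.3.3 with edgeR 4.0.16 (TMM scaling, quasi-likelihood F test, robust), with Benjamini-Hochberg adjustment over all genes and a threshold of 0.1. The treatment was tested with clone as a covariate. Effects in each clone and differences between clones came from a model of the 6 groups. CPM were scaled by TMM, and log2 CPM used a prior count of 2. SE were derived from the F statistic. Alternatives were DESeq2 1.42.0, other scalings, filters, thresholds and prior counts, each clone or library left out, and a block for the 12 pairs of equal replicate number within a clone. For the clones in DMSO the block was instead the number as a term shared by the clones. The pairing came from the study's protocol, which states that both treatments of a replicate were collected simultaneously, and paired libraries deviated from their group means together (mean r = 0.185, 0.0926 to 0.318 over 12 pairs). The scripts were tested on simulated data.

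All 10 members are named, with genes of the other lists past the threshold with or without the block, the neighbours of called members and the most similar gene. A result of another list is not reported here. The members and lists were chosen with earlier results of these data known, and *PDZK1P1*, *SIAH2-AS1* and the cAMP motif after values were seen. Each sample was plated on its own the day before harvest and replicates were collected within 1 day, so that p-values measure the spread between such platings of each clone. The 95% intervals come from edgeR and include that spread, whereas counting errors and the limit for a count of 0 cover counting error only.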

Additional observations from a re-analysis of the deposited data

Results flagged for a closer look

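*MYB* in Clone 39 DMSO had its lowest library, replicate 3 at 23.43 CPM, far from the other 3 in log2 CPM (gap of 0.832 of the range of the group). This was 1 of 60 groups of 4 checked, in which chance alone gives about 1 in 20, or 3. The response of *GREB1* to dTAG-13 differed between replicate numbers (edgeR interaction, adjusted p = 0.0166), and so did that of *AREG* (adjusted p = 0.0949). What differed between the replicate numbers was not tested.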

How the results depend on the processing

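With the 12 pairs as a replicate block, 1 of the 9 genes was called with the clones together and 1 in Clone 28, *PDZK1* in both, and the count over all genes went from 123 to 521. Between Clones 35 and 28 in DMSO, the number as a term shared across clones, which the labels do not establish as 1 time, moved the members called from 1 to 3. For the treatment, a block of the number shared across clones gave 1 member and 572 genes. The count over all genes was 64 at a threshold of 0.05, 197 without the filter on low counts, and 1, 37 and 37 without Clone 28, 35 or 39. With the block it was 177 without Clone 28, with 0 members, and 359 and 382 without Clone 35 or 39, with 1 member each time. Without the filter 1 member, *PDZK1*, was called in Clone 28, beside 0.163% of all genes. The interaction of treatment and replicate number was called for 1 member at 0.05, *GREB1*. With library totals only and without the filter it was called for 1 member too, but this was *AREG* (edgeR adjusted p = 0.0713 and 2.1e-04). With 1 library left out at a time, the count over all genes was 66 to 149. The members called were 6 to 8 between clones, 5 to 9 between replicate numbers, 1 to 2 for that interaction and 0 to 0 for dTAG-13 together and in each clone.

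None of the estimates whose sign turned was called. The log2 fold change of *AREG* with the clones together became 0.0021 with the block of the shared number, 0.045 and 0.0097 without Clone 35 or 39, 0.053 and 0.019 for the same with the block, and 0.0055 in DESeq2. That of *SIAH2* in Clone 35 became 0.00074 with RLE size factors and that of *MYB* in Clone 35 -0.012 with library totals. With 1 library left out the log2 fold change of *AREG* was -0.077 to 0.083 together, -0.049 to 0.31 in Clone 28, -0.27 to 0.16 in Clone 35 and -0.22 to 0.19 in Clone 39. In Clone 28 it was -0.068 to 0.019 for *GREB1*, -0.0044 to 0.091 for *SIAH2* and -0.62 to 0.093 for *TFF1*. In Clone 35 it was -0.093 to 0.012 for *CA12*, -0.059 to 0.019 for *GREB1*, -0.030 to 0.033 for *MYB*, -0.053 to 0.039 for *SIAH2*, -0.34 to 0.14 for *TFF1* and -0.16 to 0.29 for *TFF3*. In Clone 39 it was -0.074 to 0.023 for *GREB1*, -0.14 to 0.033 for *IGFBP4* and -0.0021 to 0.091 for *PDZK1*. The cause of these changes was not tested. Few counts limit *TFF1*, *TFF3* and *KRT13*.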
